A study of Mus musculus with 26 samples.

Results

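A tumour cut out together with skin can carry epidermis, striated muscle and blood into the RNA. The genes followed here mark these 3 host tissues: 13 genes of keratinocytes, 13 of fast skeletal muscle and 4 of red blood cell precursors, 30 in all. They were taken from a fixed list of names, chosen with earlier results of these data known. Every probe annotated to one of them alone was read. Such a probe was found for 28 of the 30 genes (12 keratinocyte, 13 muscle, 3 erythroid; 38 probes), among 19051 genes named on the array. The remaining 2 genes have no value: the 1 probe annotated to Flg (filaggrin) also names a second gene, and no probe carries the symbol Hbb-b1 in the annotation used. Beta-globin probes under the symbols Hbb-bs, Hbb-bt and Hbb-b2 were read outside the list. Whether any of them reads the listed Hbb-b1 was not tested.

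The samples were HCmel3 melanomas in C57BL6 mice, described by the labels as excised tumour skin and frozen in liquid nitrogen. The 8 EDT samples (early during treatment) were taken between day 12 and day 20 after the start of adoptive T cell transfer, without a day per tumour, and the 8 NT samples were not treated. A second set of arrays held 5 relapse samples, from tumours that came back after the transfer, and 5 ctrl samples, labelled non-treated, and its titles note a repeated analysis. The transfer combined 1 dose of cyclophosphamide with CD8+ TCR-transgenic pmel-1 T cells given into a vein, which recognise the melanocytic protein gp100. An adenovirus carrying gp100 served as vaccine, and CpG/polyI:C was given as well. Whether each sample is a mouse of its own is not given in the labels; the p-values rest on sample-to-sample spread alone, part of which can be technical. Of the 9 melanocytic genes read, 8 or 9 were detected in each EDT tumour, 8 in each relapse tumour and 9 in every NT and ctrl tumour. Arrays detected 15008 to 16830 probes in EDT, 14064 to 16312 in NT, 15992 to 18323 in relapse and 14545 to 17033 in ctrl, and the number of arrays limits the precision. Pearson's r between arrays of one group lay between 0.893 and 0.980 in EDT, 0.927 and 0.981 in NT, 0.858 and 0.969 in relapse, and 0.941 and 0.966 in ctrl.

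Keratins are paired intermediate filament proteins. Basal keratinocytes make keratins 5, 14 and 15, cells that leave the basal layer switch to keratins 1 and 10, and keratins 6a, 16 and 17 come up in hair follicles and in wounded or inflamed epidermis. Fast muscle fibres carry their own myosin light chains, troponins and calcium pump, and red cell precursors make haemoglobin chains, the haem enzyme Alas2 and the anion exchanger Slc4a1.

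Most members of each tissue followed the mean of their own list from tumour to tumour, though each is itself part of that mean. On the EDT and NT arrays, Pearson's r was at least 0.9 for 7 of 11 keratinocyte, 11 of 13 muscle and 2 of 3 erythroid genes. On the relapse and ctrl arrays it was so for 7 of 11, 11 of 12 and 3 of 3. Signals and means were first taken as deviations from group means. As background, the 120 bases before the start of some members are shown, not always the brightest of their tissue. They were taken from the genes whose listed start is the outer end of the gene (9 of the 16 members with an entry). The sequences are from RefSeq, build GRCm38.p6, and read 5′ to 3′ on the strand of the gene. Capitals mark the letters TATAAA in all, an E-box (CANNTG) or a CArG box in muscle genes, and AGATAA or CCACCC in erythroid genes, each searched on both strands. Acta1 (chr8:123894776-123894895, minus strand) held TATAAA and a CArG box, and Tnnc2 (chr2:164779735-164779854, minus strand) held 1 E-box. Hba-a1 (chr11:32283552-32283671, plus strand) held 1 CCACCC, and Alas2 (chrX:150547297-150547416, plus strand) held 1 AGATAA and 3 CCACCC that share single bases with each other. In Krt5 (chr15:101712906-101713025, minus strand) neither TATAAA nor the AP-2 motif GCCNNNGGC was found.
Krt5: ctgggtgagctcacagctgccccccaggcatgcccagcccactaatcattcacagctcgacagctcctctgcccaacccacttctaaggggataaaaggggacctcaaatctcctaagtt
Acta1: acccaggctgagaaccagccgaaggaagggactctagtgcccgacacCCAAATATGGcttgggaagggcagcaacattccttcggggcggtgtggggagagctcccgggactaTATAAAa
Tnnc2: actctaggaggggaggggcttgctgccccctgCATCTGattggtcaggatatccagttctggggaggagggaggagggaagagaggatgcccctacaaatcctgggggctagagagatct
Hba-a1: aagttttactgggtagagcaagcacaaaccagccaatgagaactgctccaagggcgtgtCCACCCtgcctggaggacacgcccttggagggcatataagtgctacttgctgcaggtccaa
Alas2: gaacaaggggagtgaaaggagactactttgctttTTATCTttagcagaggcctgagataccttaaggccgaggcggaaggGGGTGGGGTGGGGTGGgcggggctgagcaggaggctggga
Over 32851 promoters of the same length, TATAAA was in 6.34%, GCCNNNGGC in 7.98%, CANNTG in 40.2%, the CArG box in 0.749%, AGATAA in 4.36% and CCACCC in 16.5%. A match is a run of letters and says nothing of use by a factor.

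The level of keratinocyte transcripts differed widely between pieces of one group. The tissue level of a tumour is the mean log2 signal over all members of the list on the array, detected or not, where the signal was background-corrected and quantile-normalized within its own set of arrays. The keratinocyte level had a lowest, median and highest value of 4.57, 5.78 and 9.39 in EDT tumours and 4.52, 5.10 and 8.23 in NT tumours. In relapse tumours 1 to 5 it was 4.58, 8.99, 5.90, 8.31 and 9.13, and in ctrl tumours 1 to 5 it was 4.68, 6.65, 6.20, 6.80 and 4.65. The groups overlapped in both comparisons. A gene counts as detected on an array with a detection p under 0.01, and at least 3 of the 12 keratinocyte genes were detected in 5 of 8 EDT tumours, 4 of 8 NT tumours, 4 of 5 relapse tumours and 3 of 5 ctrl tumours. In 1 EDT tumour and 4 NT tumours none was detected. In bulk tissue, fewer cells of a type and less RNA per cell cannot be told apart.

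**Figure D1:**
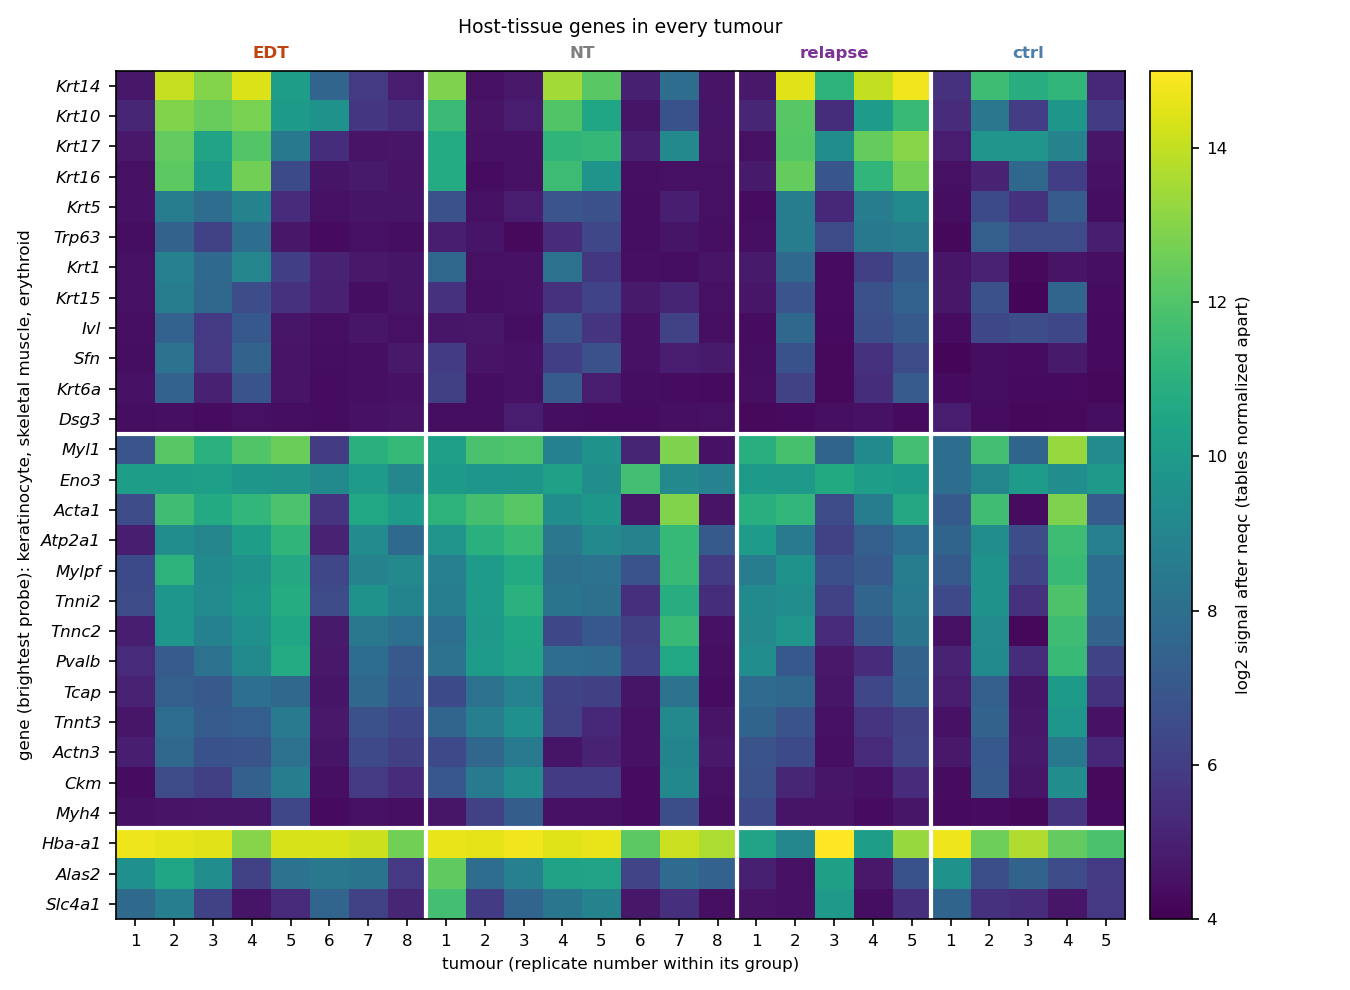
Log2 signal (colour) of the brightest probe of each of the 28 genes (rows, by tissue) in the 26 tumours (columns, by group and replicate number). Keratinocyte genes are bright in EDT 2, 3 and 4, NT 1, 4 and 5 and relapse 2, 4 and 5, while Eno3 and Hba-a1 are detected in every tumour.

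Krt14, the acidic keratin of the basal layer, had the widest range of all members in EDT, NT and relapse tumours, and Acta1 had it in ctrl tumours. Its log2 signal had a lowest, median and highest value of 4.71, 8.87 and 14.40 in EDT tumours and 4.47, 6.44 and 13.49 in NT tumours. It was 4.74, 14.49, 11.13, 13.99 and 14.77 in relapse tumours 1 to 5, and 5.56, 11.59, 10.84, 11.25 and 5.22 in ctrl tumours 1 to 5. The brightest EDT tumour stood at least 496-fold above the dimmest, and the brightest NT, relapse and ctrl tumours at least 223-fold, 882-fold and 68.2-fold above theirs. Each of these is a lower bound, because the dimmest tumour did not detect the probe and was set to the lowest signal its array detected. Krt14 was detected in 6 of 8 EDT tumours, 4 of 8 NT tumours, 4 of 5 relapse tumours and 4 of 5 ctrl tumours.

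Krt10, the keratin of cells that have left the basal layer, followed Krt14 in most tumours. It had a lowest, median and highest log2 signal of 5.17, 9.80 and 12.93 in EDT tumours and 4.60, 5.84 and 12.03 in NT tumours. In relapse tumours 1 to 5 it was 5.16, 12.12, 5.43, 10.03 and 11.46, against 5.39, 8.35, 5.98, 9.82 and 5.95 in ctrl tumours 1 to 5. In ctrl 3 and ctrl 4 Krt14 was at 10.84 and 11.25, while Krt10 was at 5.98 and 9.82. Krt1 was not detected in relapse 3 or in any ctrl tumour.

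Krt17, a keratin of hair follicles and of wounded epidermis, had a lowest, median and highest log2 signal of 4.60, 6.95 and 12.34 in EDT tumours and 4.53, 7.05 and 11.31 in NT tumours. It was 4.51, 12.12, 9.44, 12.39 and 13.02 in relapse tumours 1 to 5, against 4.84, 9.72, 9.72, 8.90 and 4.68 in ctrl tumours 1 to 5. Relapse 2, 4 and 5 lay above every ctrl tumour, and relapse 1, ctrl 1 and ctrl 5 did not detect it. Among NT tumours it was detected in NT 1, 4, 5 and 7.

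The keratinocyte members other than Krt14, Krt10, Krt17 and Krt16 were each detected in at most 4 tumours of a group. Krt5, the basic partner of Krt14, and Trp63, the transcription factor of basal cells, reached 8.92 and 7.98 in EDT 4, against 6.91 in NT 4 for Krt5 and 6.32 in NT 5 for Trp63. Krt5 and Trp63 reached 9.26 and 8.65 in relapse 5, against 7.21 in ctrl 4 and 7.34 in ctrl 2. Krt1, the partner of Krt10, was detected in 4 of 8 EDT, 3 of 8 NT, 3 of 5 relapse and 0 of 5 ctrl tumours. Ivl (involucrin), a protein of the cornified envelope, was detected in 3 of 8 EDT, 2 of 8 NT, 3 of 5 relapse and 3 of 5 ctrl tumours. Sfn (14-3-3 sigma) was detected in 3 of 8 EDT, 3 of 8 NT, 3 of 5 relapse and 0 of 5 ctrl tumours, and Krt6a in 2 of 8, 2 of 8, 3 of 5 and 0 of 5. Dsg3, a desmosomal cadherin, was detected in none of the 26 tumours. The keratins lie in 2 blocks of GRCm38.p6: Krt10, Krt15, Krt14, Krt16 and Krt17 between bases 99385254 and 100261029 of chromosome 11, and Krt6a, Krt5 and Krt1 between 101689928 and 101850786 of chromosome 15.

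**Figure D2:**
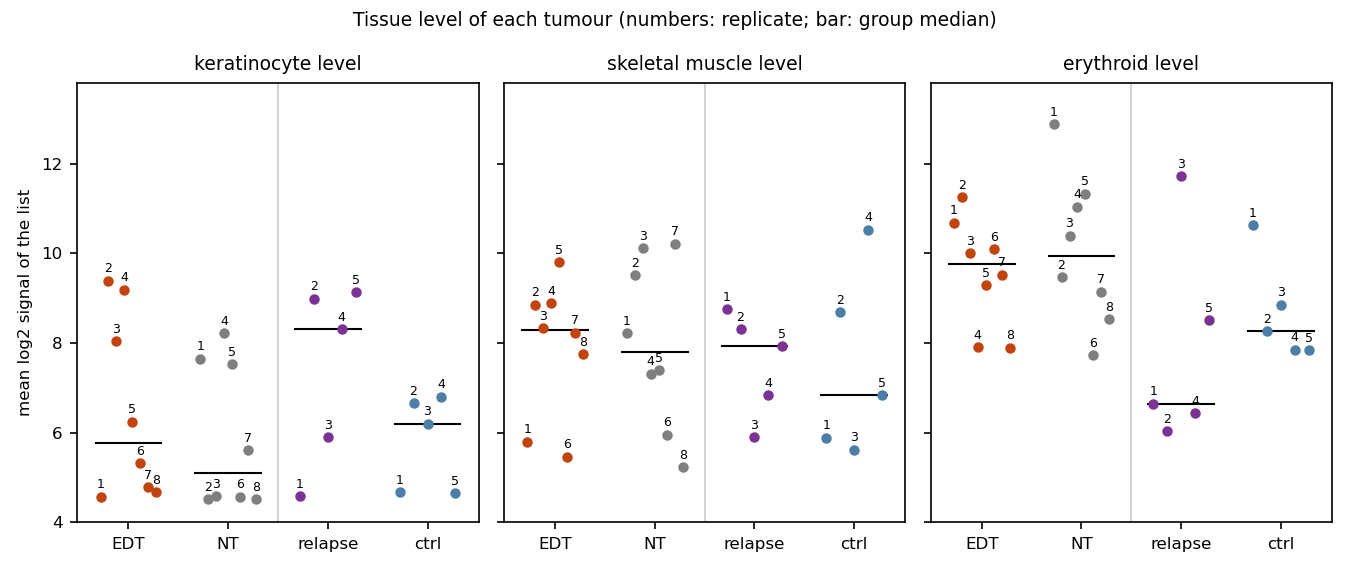
Tissue level (mean log2 signal of the 12 keratinocyte, 13 muscle or 3 erythroid genes) of each tumour; points carry the replicate number, bars are group medians, and the grey line parts the 2 sets of arrays, which were normalized apart. The keratinocyte level of EDT tumours runs between 4.57 and 9.39 and that of NT tumours between 4.52 and 8.23.

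Muscle transcripts were in more pieces than keratinocyte transcripts, and not always in the same ones. The muscle level had a lowest, median and highest value of 5.47, 8.28 and 9.80 in EDT tumours and 5.24, 7.81 and 10.21 in NT tumours. It was 8.75, 8.31, 5.89, 6.83 and 7.92 in relapse tumours 1 to 5, against 5.89, 8.69, 5.63, 10.53 and 6.83 in ctrl tumours 1 to 5. The groups overlapped in both comparisons. NT 2 and NT 3 detected all 13 muscle genes and no keratinocyte gene, and relapse 1 detected 13 muscle genes and 1 keratinocyte gene. The pieces with the fewest muscle genes were EDT 1 and EDT 6 with 5 each, NT 8 with 3, relapse 3 with 6 and ctrl 3 with 4. Eno3 and Mylpf were detected in every tumour and so count in each piece. Myl1 and Acta1 were not among the 3 of NT 8. By Myl1 alone, muscle was detected in 8 of 8 EDT, 6 of 8 NT, 5 of 5 relapse and 5 of 5 ctrl tumours.

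Myl1, the essential myosin light chain of fast fibres, had a lowest, median and highest log2 signal of 5.91, 11.19 and 12.53 in EDT tumours and 4.54, 9.92 and 12.89 in NT tumours. It was 10.92, 11.80, 7.55, 9.28 and 11.73 in relapse tumours 1 to 5, against 7.98, 11.72, 7.53, 13.32 and 9.29 in ctrl tumours 1 to 5. The brightest EDT tumour was 98.1-fold above the dimmest, and the brightest NT tumour at least 168-fold.

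Acta1, skeletal alpha-actin, whose promoter is shown above, followed Myl1. Its lowest, median and highest log2 signals were 5.65, 10.63 and 11.90 in EDT tumours and 4.60, 10.46 and 12.90 in NT tumours. It was 10.94, 11.29, 6.55, 8.66 and 10.63 in relapse tumours 1 to 5, against 7.12, 11.61, 4.38, 12.87 and 7.15 in ctrl tumours 1 to 5. Ctrl 4 was the brightest and ctrl 3 the dimmest of their group in both genes.

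Eno3, the muscle form of enolase, went against its label. It was detected in all 26 tumours, with a lowest, median and highest log2 signal of 9.10, 9.91 and 10.22 in EDT tumours and 8.87, 9.81 and 11.71 in NT tumours. It was 9.97, 9.89, 10.66, 10.13 and 9.98 in relapse tumours 1 to 5, against 7.98, 9.03, 10.07, 9.37 and 9.91 in ctrl tumours 1 to 5. NT 6, with 6 muscle genes detected, had the highest Eno3 of the NT group. Taken as deviations from group means, Eno3 and the muscle level had a Pearson r of -0.10 on the 16 arrays of the first set. On the 10 of the second r was -0.13. Both are descriptions over arrays that share their normalization. The other 12 muscle members had r between 0.79 and 0.99 on the first set, though each is itself part of that level. Atp2a1, the calcium pump of fast fibres, was also detected in NT 6 at 8.90 and NT 8 at 7.11, where Acta1 was at 4.73 and 4.60. Myh4, the heavy chain of the fastest fibres, was detected in 1 of 8 EDT, 3 of 8 NT, 1 of 5 relapse and 1 of 5 ctrl tumours.

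Blood transcripts were in every piece. Hba-a1, an adult alpha-globin chain, was detected in all 26 tumours and was the brightest member. Its transcript is nearly the same as that of Hba-a2, and the probe's share of each is not known. It had a lowest, median and highest log2 signal of 12.67, 14.32 and 14.72 in EDT tumours and 12.21, 14.51 and 14.78 in NT tumours. In relapse tumours 1 to 5 it was 10.43, 9.06, 14.995, 10.14 and 13.32, against 14.74, 12.56, 13.68, 12.35 and 11.85 in ctrl tumours 1 to 5. Relapse 1, 2 and 4 lay below every ctrl tumour and relapse 3 above, and the relapse group spanned 61.3-fold. Hbb-bs, a beta-globin chain that was no member, had the same order of relapse tumours, at 11.44, 10.42, 14.77, 10.75 and 13.96 in relapse tumours 1 to 5, against 15.31, 13.25, 14.92, 13.27 and 13.94 in ctrl tumours.

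Alas2, the first enzyme of haem synthesis in red cell precursors, varied between the pieces as well. It had a lowest, median and highest log2 signal of 5.84, 8.31 and 10.48 in EDT tumours and 6.28, 8.38 and 12.31 in NT tumours. It was 4.95, 4.48, 10.25, 4.75 and 6.76 in relapse tumours 1 to 5, against 9.60, 6.66, 7.50, 6.55 and 5.88 in ctrl tumours 1 to 5. It was detected in 2 of 5 relapse tumours and in all tumours of the other 3 groups.

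Slc4a1, the anion exchanger of the red cell membrane, had a lowest, median and highest log2 signal of 4.63, 6.15 and 8.70 in EDT tumours and 4.47, 6.77 and 11.71 in NT tumours. It was 4.58, 4.55, 9.94, 4.43 and 5.46 in relapse tumours 1 to 5, against 7.56, 5.58, 5.40, 4.66 and 5.81 in ctrl tumours 1 to 5. NT 1 was the brightest NT tumour in Alas2 and Slc4a1, and relapse 3 the brightest relapse tumour in all 3 erythroid members.

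The host-tissue genes were among the most variable probes between tumours that carry the same label. The members were chosen with earlier results of these data known, so their ranks only describe a chosen list. The SD of log2 signal within a group, which uses no contrast between groups, was ranked among all probes tested in that set of arrays, 17998 in the first and 18947 in the second. Over the members that were tested, whose filter already asks for detection somewhere, the median rank was the 99.2nd percentile in EDT (27 genes), the 99.5th in NT (27 genes), the 97.6th in relapse (26 genes) and the 99.6th in ctrl (26 genes). The median SD of these members was 1.62, 1.91, 1.67 and 1.76 in EDT, NT, relapse and ctrl, against 0.31, 0.38, 0.41 and 0.39 over all probes tested. Members above the 95th percentile numbered 24 of 27 in EDT, 25 of 27 in NT, 19 of 26 in relapse and 22 of 26 in ctrl. Eno3 had the lowest rank in EDT, at the 73.7th percentile, and in relapse, at the 30.2nd, and Krt1, Krt6a and Sfn were at the 29.0th, 0.248th and 13.9th in ctrl, where no array detected them. On the second set, where bead errors were deposited, the median standard error of a member's signal from its own beads was 0.0679 on the log2 scale, and the highest over genes 0.0939.

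**Figure D3:**
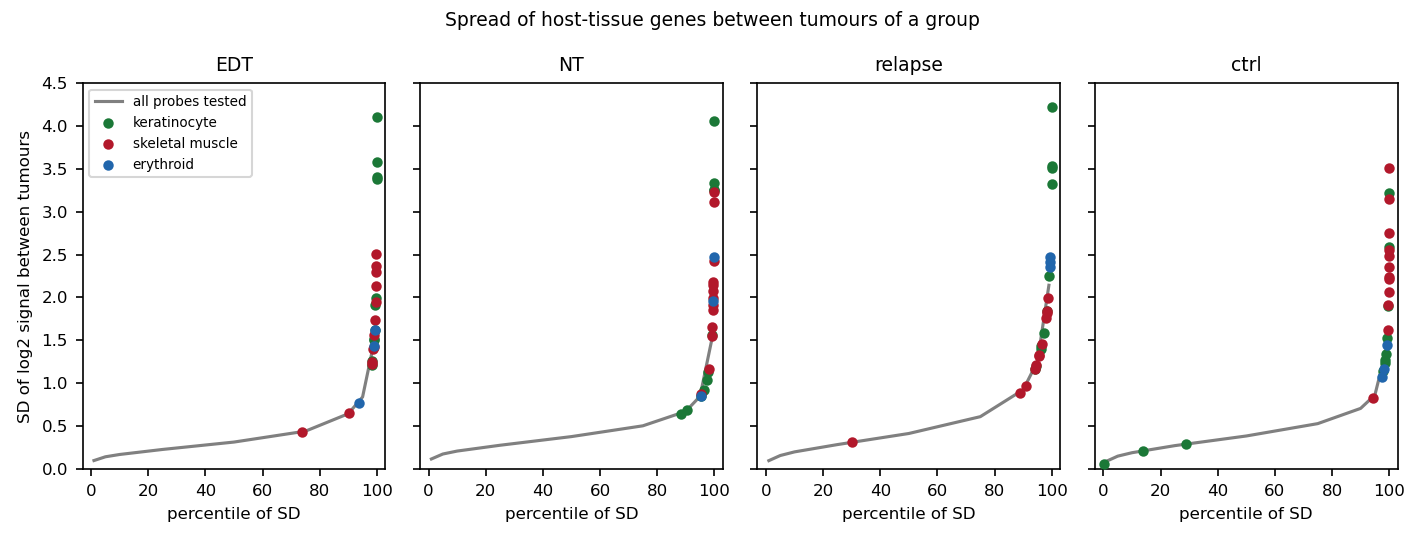
SD of log2 signal between tumours of a group (vertical) against its percentile among all probes tested (horizontal), for each group; the grey line is all probes tested and the points are member genes. In EDT tumours 24 of 27 members, in NT tumours 25 of 27, in relapse tumours 19 of 26 and in ctrl tumours 22 of 26 lie above the 95th percentile.

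Group differences, EDT minus NT and relapse minus ctrl, were fitted with limma over all tested probes to ask whether the treated tumours held more or less of these tissues than the non-treated ones. In EDT minus NT, 0 of 33 member probes passed an adjusted p of 0.05, where 24.8% of all probes tested did. No member probe had an unadjusted p under 0.05, and the lowest adjusted p was 0.300 (Atp2a1). All 11 tested keratinocyte genes had a difference above 0 and all 3 erythroid genes one below 0, and none of these differences passed the test. Krt14 differed by 1.16 ± 1.80 (SE, adjusted p = 0.676) on the log2 scale, Krt10 by 1.82 ± 1.49 (adjusted p = 0.394), Krt16 by 0.69 ± 1.51 (adjusted p = 0.776) and Krt17 by 0.21 ± 1.47 (adjusted p = 0.932). Of the muscle genes, 7 of 13 were above 0, with Myl1 at 0.98 ± 1.25 (adjusted p = 0.604), Acta1 at 0.23 ± 1.25 (adjusted p = 0.915) and Atp2a1 at -1.27 ± 0.87. Hba-a1 differed by -0.10 ± 0.37 (adjusted p = 0.872), Alas2 by -0.65 ± 0.80 (adjusted p = 0.587) and Slc4a1 by -0.70 ± 0.90 (adjusted p = 0.608). The median difference was 0.69 over keratinocyte, 0.10 over muscle and -0.65 over erythroid genes, beside -0.05 over all probes tested.

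The labels name no slide. Arrays whose barcodes differ only in the last letter, A to F, were taken as one slide, and the slides were numbered in order. Of the slides of the first set, only slide 5 held arrays of both groups, EDT 7 and 8 with NT 6, 7 and 8. Of the 10 members followed through every setting, 4 turned sign within it: Krt14 was -0.46 there, Krt17 -1.61, Hba-a1 0.0904 and Slc4a1 0.80, each again short of the threshold. Myl1 was 3.64 and Acta1 2.90 there, also short of it. With slide as a fixed block these differences are the same by construction, since no other slide held both groups. With arrays scaled to one median, Hba-a1 was 0.22 and Eno3 0.28, against -0.09 for Eno3 after quantile normalization. That scaling moved the median of all probes by over 0.1, to 0.27 in EDT minus NT and 0.35 in relapse minus ctrl.

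In relapse minus ctrl, 1 of 33 member probes passed, where 28.3% of all probes tested did (13.7% higher and 14.6% lower). That was Krt16, a keratin of activated epidermis and the partner of Krt6a. Its log2 signal was 4.79, 12.39, 6.96, 11.24 and 12.68 in relapse tumours 1 to 5, against 4.49, 5.03, 7.67, 6.05 and 4.52 in ctrl tumours 1 to 5. It was detected in 4 of 5 relapse tumours and 2 of 5 ctrl tumours, relapse 2, 4 and 5 lay above every ctrl tumour, and relapse 1 lay among the ctrl tumours that did not detect it. The difference was 4.06 ± 1.38 (SE, adjusted p = 0.0453), or 16.7-fold. Of 19 alternative settings 8 kept it under the threshold, and its difference ran between 2.31 within slide 6 (adjusted p = 0.466) and 6.67 within slide 7 (adjusted p = 0.00488). The call was lost without relapse 2, 4 or 5 (adjusted p = 0.101, 0.102 and 0.108) and without ctrl 1, 2, 4 or 5 (adjusted p = 0.0962, 0.0807, 0.0694 and 0.0916). In EDT tumours Krt16 had a lowest, median and highest value of 4.51, 5.62 and 12.64, against 4.38, 4.497 and 11.56 in NT tumours.

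All 11 keratinocyte genes tested, Krt16 among them, were above 0, with a median of 1.42 beside -0.01 over all probes tested. Of these, Krt1, Krt6a and Sfn were detected in 3 of 5 relapse tumours and 0 of 5 ctrl tumours, so they entered the test through the relapse group alone and their sign was set by that. The 8 genes detected in both groups had a median of 1.67. Krt14 differed by 2.93 ± 1.93 (adjusted p = 0.268), Krt17 by 2.72 ± 1.59 (adjusted p = 0.213), Krt10 by 1.74 ± 1.40 (adjusted p = 0.366) and Krt5 by 1.60 ± 0.94 (adjusted p = 0.218). Krt1 and Krt6a had adjusted p of 0.0751 and 0.0730. Without relapse 1, the relapse piece with the fewest keratinocyte genes detected, 8 member probes passed, all higher: Krt16, Krt6a (2 probes), Krt17, Krt14, Trp63, Krt1 and Sfn. That was beside 24.4% of all probes tested in that setting. Without relapse 3, 7 passed, beside 38.6% of all probes: Krt1, Krt6a (2 probes), Krt16 and Sfn higher, and Hba-a1 (-2.30, adjusted p = 0.0381) and Alas2 (-2.01, adjusted p = 0.0381) lower. Without any 1 of the other tumours 0 or 1 passed.

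Myh4 was detected on too few arrays to be tested in relapse minus ctrl. Of the other muscle genes 5 of 12 were above 0, with a median of -0.11, Acta1 at 0.99 ± 1.47 (adjusted p = 0.640) and Myl1 at 0.29 ± 1.13 (adjusted p = 0.870). Eno3 differed by 0.85 ± 0.36 (adjusted p = 0.0912), and by 1.22 ± 0.34 (adjusted p = 0.0205) with arrays scaled to one median. The 3 erythroid genes were below 0, Hba-a1 at -1.45 ± 1.004 (adjusted p = 0.294), Alas2 at -1.003 ± 1.03 (adjusted p = 0.486) and Slc4a1 at -0.01 ± 0.95 (adjusted p = 0.994). Slc4a1 turned above 0 without background correction (0.24), with median scaling (0.20), with the authors' values (0.01) and within slide 6 (0.17).

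**Figure D4:**
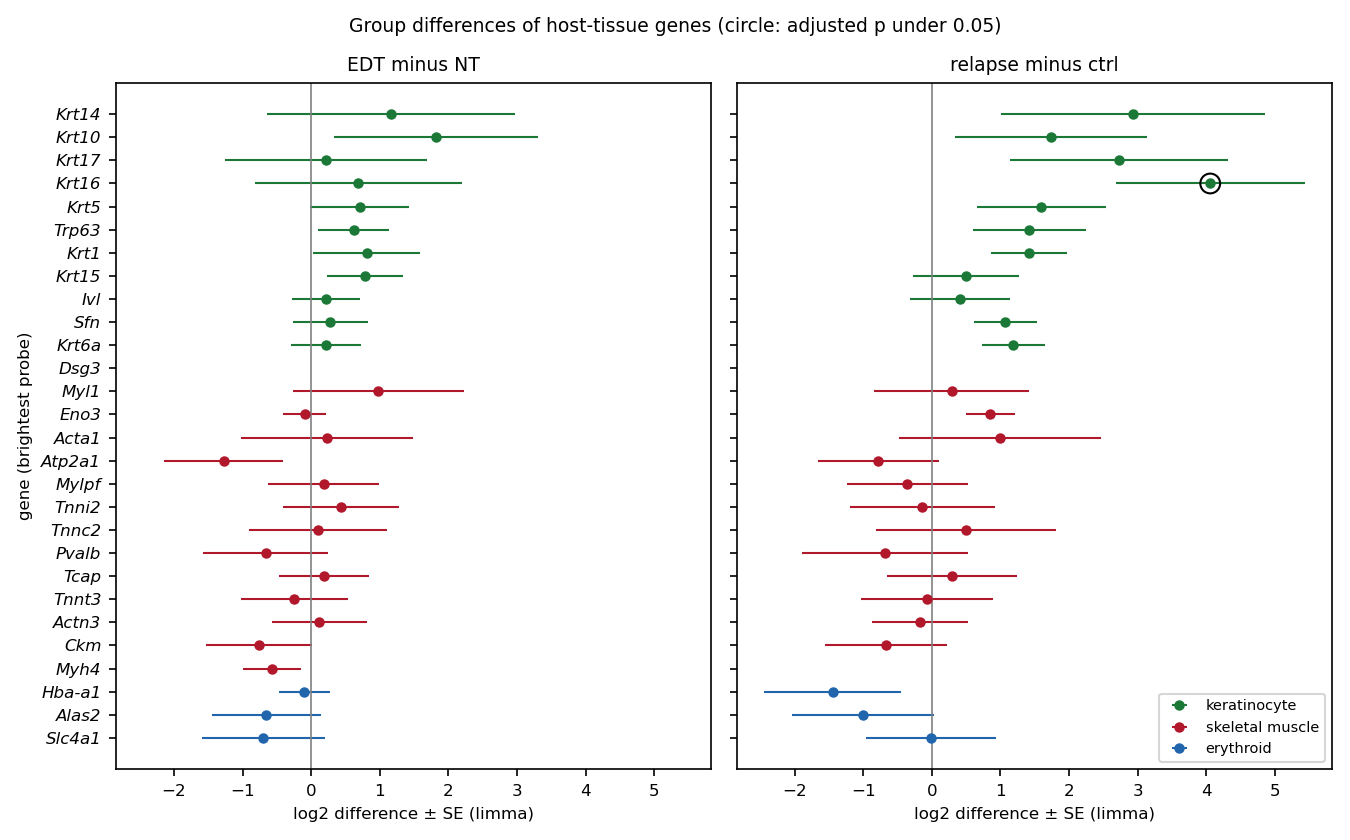
Log2 difference of each tested member gene with its standard error, for EDT minus NT (left) and relapse minus ctrl (right), coloured by tissue; a circle marks an adjusted p under 0.05. All 11 tested keratinocyte genes lie right of 0 in both panels, though Krt14 and Krt17 turn in EDT minus NT within slide 5, and Krt16 in relapse minus ctrl (4.06) is the 1 gene called.

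Pmel, the melanocytic antigen gp100, was at 12.86, 6.27, 13.95, 9.84 and 9.42 in relapse tumours 1 to 5, against 14.995 to 15.24 in ctrl tumours, so the 3 relapse pieces with the highest keratinocyte level had the lowest Pmel. Its part in the difference of Krt16 was not tested. Of 19 other epidermal genes tested in relapse minus ctrl, 3 passed higher and 0 lower, where 13.7% of all probes tested passed higher. Of these 19, 14 were detected in both groups. The other 5 were detected in relapse tumours alone, which set their sign. The keratin Krt6b, at least 5.98-fold higher by its brighter probe (adjusted p = 0.0373) and short of the threshold by the other (adjusted p = 0.0529), was detected in 3 of 5 relapse and 0 of 5 ctrl tumours and so entered the test through the relapse group alone. Sprr1a, a cornified envelope protein, rose by 3.33 ± 0.75 (adjusted p = 0.00823), and the galectin Lgals7 by 1.99 ± 0.55 (adjusted p = 0.0197) by its brightest of 3 probes, of which 2 passed. Sprr1a was at 9.33 and Lgals7 at 11.39 in relapse 1, where 1 keratinocyte member was detected. In EDT minus NT 0 of 20 other epidermal genes passed, and 0 of their 29 probes had an unadjusted p under 0.05.

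S100a8, which neutrophils and inflamed epidermis share, rose in EDT over NT by 3.04 ± 0.98 (adjusted p = 0.0295). It was at 13.58, 12.28 and 14.12 in EDT 2, 3 and 4, which detected 10 or 11 keratinocyte members. It was also at 12.85 in EDT 1, where no keratinocyte member was detected. NT tumours lay between 5.39 and 11.86. EDT 5 to 8 are not given, so these values do not show the groups apart. EDT 6 and EDT 7 detected 1 and 2 of the genes that neutrophils and epidermis share. Of 5 such genes tested in EDT minus NT, 1 passed higher and 0 lower, where 11.8% of all probes tested passed higher. In relapse minus ctrl 2 of 5 passed higher, where 13.7% of all probes tested did. Within NT tumours S100a8 and Krt14 had a Pearson r of 0.71 (exact permutation p = 0.0502, adjusted over 8 relations 0.201) and a Spearman rho of 0.74 (exact p = 0.0458, adjusted 0.367). Without the 2 NT tumours farthest from the median of Krt14, r was 0.30. In EDT tumours r was 0.54 (exact permutation p = 0.164, adjusted 0.424), and 0.06 without the 2 EDT tumours chosen likewise, a choice that also narrows the range of Krt14.

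No relation between keratinocyte, muscle and erythroid members passed adjustment. Krt14 and Myl1 had a Pearson r of 0.53 in EDT tumours (n = 8, exact permutation p = 0.212) and 0.16 in NT tumours (n = 8, exact permutation p = 0.670), with Spearman rho of 0.57 (exact p = 0.151) and -0.05 (exact p = 0.935). Krt14 and Hba-a1 had r of 0.05 in EDT tumours (exact permutation p = 0.865) and 0.43 in NT tumours (exact permutation p = 0.303), with rho of -0.04 (exact p = 0.946) and 0.14 (exact p = 0.752). Myl1 and Hba-a1 had r of -0.35 in EDT tumours (exact permutation p = 0.422) and 0.73 in NT tumours (exact permutation p = 0.0355), with rho of -0.16 (exact p = 0.717) and 0.52 (exact p = 0.197). The last r in NT was -0.37 without NT 6 and NT 8, the 2 pieces with the least Myl1. The lowest adjusted p over the 8 relations was 0.201. With 5 tumours a group, no such relation was computed in relapse and ctrl.

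**Figure D5:**
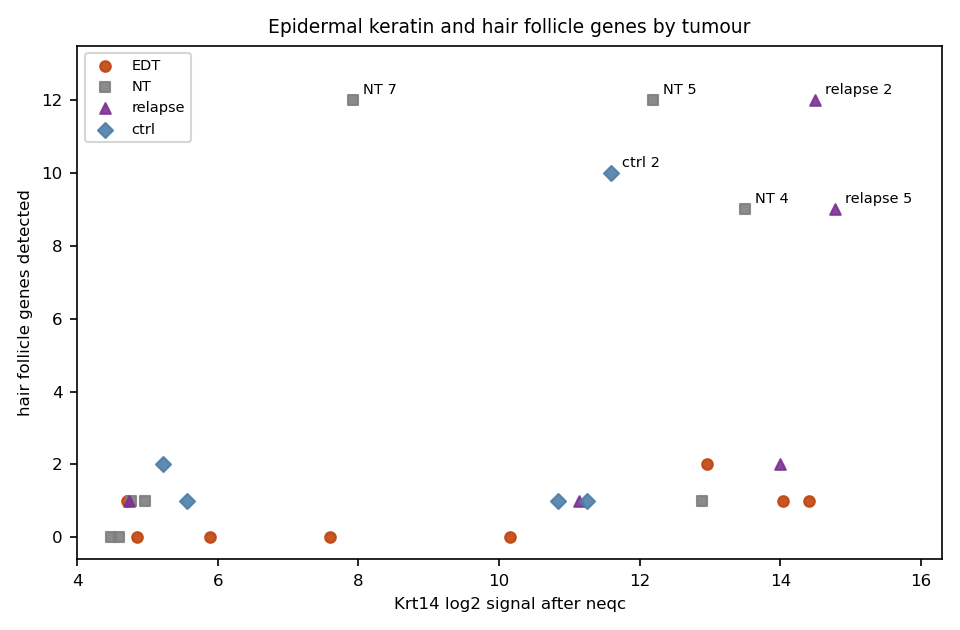
Number of hair follicle genes detected (vertical, of 17 read) against the log2 signal of Krt14 (horizontal) in each of the 26 tumours. NT 4, 5 and 7, relapse 2 and 5 and ctrl 2 detected 9 to 12 follicle genes, and the other tumours, all EDT tumours among them, at most 2.

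Hair follicle genes did not go with the keratinocyte members in every piece. Of 17 hair follicle genes read, NT 4, 5 and 7 detected 9, 12 and 12, relapse 2 and 5 detected 12 and 9, and ctrl 2 detected 10. EDT tumours detected at most 2, among them EDT 2, 3 and 4 with 11, 10 and 11 keratinocyte members. Krt27, a keratin of the inner root sheath, was at 7.48, 12.001 and 10.55 in NT 4, 5 and 7, where EDT tumours lay between 4.36 and 4.78 with no detection. None of the 10 follicle genes tested in EDT minus NT passed (0 higher, 0 lower, lowest adjusted p 0.118 in limma), and 4 of their 11 probes had an unadjusted p under 0.05, beside 37.4% of all probes tested. By their brightest probes, 9 of these 10 genes were detected in NT tumours and in no EDT tumour, and so entered the test through NT alone. A second probe of Krt86 was detected in 1 EDT tumour and 3 NT tumours. NT 7 also had the brightest Adipoq, the adipocyte hormone, at 10.49, against at most 6.44 in the other NT tumours.

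A rule chosen after these values were seen listed the other tested probes with a Pearson r of at least 0.9 with a tissue level. The log2 signal and the level were first taken as deviations from their group means. On the 16 arrays of the first set, 99 probes (0.551% of 17965) followed the keratinocyte level, 13 the muscle level and 8 the erythroid level, and 0 of them passed in EDT minus NT. The 3 levels themselves differed by 0.63 ± 0.93, -0.10 ± 0.85 and -0.48 ± 0.73 (SE) in EDT minus NT. Probes picked for following them share their spread within groups, so 0 passing is no separate result. On the 10 arrays of the second set, 74, 19 and 21 probes followed the 3 levels, in the same order. Of these, 8, 2 and 5 passed in relapse minus ctrl, where 28.3% of all probes did. Probes with r of -0.9 or below numbered 0, 0 and 1 on the first set and 22, 5 and 7 on the second. Whether the probes listed come from host tissue was not tested. The most alike on the first set were Dmkn (r = 0.996), Ly6g6c (0.992) and Krtdap (0.991) for keratinocytes, Tpm2 (0.98), Actn2 (0.98) and Cox6a2 (0.97) for muscle, and Hbb-bt (0.96) and Rtkn2 (0.95) for the erythroid level. Hbb-bt is a beta-globin gene, as the listed Hbb-b1 is, so it is no unrelated match. With the 3 tissue levels as covariates, 3767 in place of 4471 probes passed in EDT minus NT, and 2240 in place of 5365 in relapse minus ctrl. Covariates leave fewer degrees of freedom, and 3595 passed in relapse minus ctrl merely without relapse 5. These counts therefore do not measure a share due to host tissue.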

How the data were processed

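The platform was the Illumina MouseWG-6 v2.0 bead array, with 16 tumours in one table and 10 in another. Per the file headers, the deposited tables give for each probe an average signal intensity that was not normalized, and a detection p-value against negative controls. The table of relapse and ctrl arrays also gives the bead count and the bead standard error, as deposited. The authors' normalized log2 values served as an alternative; how they were made is not stated in the labels or headers. Each table was background-corrected and quantile-normalized apart with limma 3.58.1 (R 4.3.3, neqc, offset 16), and levels are not compared across tables. Of 45281 probes, 17 stood in 1 table and 4 had mistyped values, which left 45260; 34871 carried 1 gene symbol. Probes that 3 or more arrays of a table, of any group, detected (p under 0.01) were fitted with lmFit and eBayes, group as the term, Benjamini-Hochberg threshold 0.05. A gene is shown by its probe of highest mean log2 signal over all 26 arrays. Members given in full are the 3 brightest of each list, the member of widest range within a group, and any called; others named, and context genes beyond the called and the 2 brightest of a list, were chosen after their values were seen. Relations within EDT and NT used exact two-sided permutation tests. The fit was tested on simulated data. The members and lists were chosen with earlier results of these data known.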

Additional observations from a re-analysis of the deposited data

Results flagged for a closer look

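Of 118 gene-and-group sets of 5 or 8 tumours, 3 held a tumour that stood apart from the others by Dixon's 95% criterion, where chance gives about 1 in 20. Myh4, the heavy chain of the fastest fibres, was at 6.35 in EDT 5, with the next EDT tumour at 4.67 and the lowest at 4.33; EDT 5 alone detected it, so the gap is to values not above background. Hba-a1 was at 12.21 in NT 6, with the next NT tumour at 13.65 and the highest at 14.78. Slc4a1 was at 9.94 in relapse 3, with the next relapse tumour at 5.46 and the lowest at 4.43. What sets these tumours apart was not tested.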

How the results depend on the processing

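With the tissue levels as covariates 4 of 33 member probes passed in EDT minus NT and 0 in relapse minus ctrl, values with no meaning of their own since the members make up those levels. In every other setting of EDT minus NT, leaving out each tumour included, 0 passed, and the number of probes passing overall was 1433 with slide as a fixed block and 619 within slide 5. For relapse minus ctrl the member probes passing were 2 with median scaling and with the replicate block, 3 with the authors' values, 5 within slide 7 (21.6% of all probes), and 0 without background correction, with detection on 5 arrays, with no detection filter, with robust moderation and within slide 6. Leaving out 1 tumour gave 0 to 8. The filter of detection on 5 arrays of a group left 22 member probes tested in each comparison. Krt16 was not among them, so its call could not recur there. Over all probes 2240 passed with the tissue levels as covariates and 826 within slide 6. Replicate numbers are not shown to pair the samples: their correlations were -0.08 to 0.24 for EDT with NT and -0.03 to 0.29 for relapse with ctrl, though relapse 1, 2 and 3 each matched their own ctrl number best, and numbers 1 to 3 of both groups lay on slide 6 and 4 and 5 on slide 7. With the replicate block 3922 and 5670 probes passed, and Krt1 beside Krt16.

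In EDT minus NT the sign turned within slide 5 for Krt14 (-0.46), Krt17 (-1.61), Hba-a1 (0.0904) and Slc4a1 (0.80). Slide as a fixed block gives the same differences by construction and is no separate result. The sign also turned for Krt17 (-0.26) with slide as a random block, and for Eno3 with the authors' values (0.0407) and median scaling (0.28). It turned as well for Hba-a1 with median scaling (0.22), and for Acta1 without background correction (-0.0194). In relapse minus ctrl it turned for Myl1 (-0.80) and Acta1 (-0.36) within slide 7, and for Slc4a1 with the authors' values (0.0119), median scaling (0.20), no background correction (0.24) and within slide 6 (0.17). The causes were not tested. Leaving out 1 tumour gave ranges of -0.43 to 0.74 (Krt17), -0.0472 to 1.37 (Krt16), -0.24 to 0.17 (Eno3), -0.48 to 0.82 (Acta1) and -0.37 to 0.0966 (Hba-a1) in EDT minus NT, and -0.32 to 1.12 (Myl1), -0.0715 to 2.05 (Acta1) and -1.05 to 0.43 (Slc4a1) in relapse minus ctrl.

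Without background correction the range of the tissue level was 1.05 for keratinocytes in ctrl, and 2.75 in EDT and 1.57 in relapse for muscle. The median percentile of the SD was then 90.8 and 95.9 for keratinocyte genes in NT and relapse, and 98.8 and 99.2 for erythroid genes in relapse and ctrl, and r of Krt14 with Myl1 in NT was -0.0263. The range of the erythroid level was 2.49 to 5.70 in relapse and 1.01 to 2.79 in ctrl when 1 tumour was left out, lowest without relapse 3 and without ctrl 1. The r of Krt14 with Hba-a1 in EDT was then -0.42 to 0.46, with Myl1 in NT -0.0875 to 0.32, and with S100a8 in NT 0.55 to 0.83. Median scaling gave 3669 higher and 305 lower probes in EDT minus NT, against 2116 and 2355 after quantile normalization, and 4398 and 1094, against 2602 and 2763, in relapse minus ctrl; the authors' values gave 2733 and 1221, and 3251 and 2102.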
